A study of Marmota monax with 20 samples.

Results

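The 7 genes described here each had the largest read count of all 30973 annotated genes in at least 1 RNA-seq library of liver, kidney, spleen, heart, lung, pancreas or thymus of the Eastern woodchuck (*Marmota monax*). They were chosen on these counts, so their high levels in the tissues that they lead are a description without a test. The genes of the Monax4B annotation are given by identifier, because none of the 30973 identifiers was found among the 34878 genes of the RefSeq table used for names. Their products, positions and sequences are therefore not analysed here, and the tissue labels could not be checked against marker genes. The counts were not divided by gene length, so the largest count of a library does not have to belong to the gene with the most transcripts, and levels are compared within a gene rather than between genes.

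Polyadenylated RNA was sequenced from 6 adult animals, the females F6849, F9150 and F6852 and the males M4046, M4075 and M4091. All were negative for the woodchuck hepatitis virus and had received no treatment. Liver was available from all 6 animals, kidney and spleen from all but F6852, heart and lung from F6849 alone, and pancreas and thymus from F9150 alone, which gives 20 libraries. Heart, lung, pancreas and thymus have 1 library each, so their values have no replicate and enter no test, and for these tissues the animal cannot be told apart from the tissue. The total counts per library ran from 59487004 to 140252555, and each share of a library given here has a 95% Wilson interval of at most 0.0077 percentage points to either side, which covers counting error only.

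In a whole organ, a few transcripts can make up much of the messenger RNA. Hepatocytes release most plasma proteins and the acinar cells of the pancreas release digestive enzymes, and in such secretory organs a small number of genes takes a large part of the reads. Cardiac muscle is rich in transcripts of contractile proteins, lung in those of the surfactant, and spleen and thymus in those of blood and immune cells. Genes of the protein synthesis machinery are, by contrast, abundant in nearly every cell. In bulk RNA, fewer cells of a type and less RNA per cell cannot be told apart.

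The 7 genes led 18 of the 20 libraries. Monax4B019954 led 6 of 6 livers, Monax4B011714 the lung, Monax4B014099 the heart, Monax4B017256 the pancreas and Monax4B045448 the thymus. Kidney and spleen had no leader common to all their libraries. Monax4B042242 led 4 of 5 kidneys and 2 of 5 spleens, and Monax4B009745 led 2 of 5 spleens. The same rule finds 9 genes in all, since 2 further genes led 1 library each. Monax4B021576 led the kidney of M4091 with 1391006 counts (2.18% of the library), and Monax4B014392 led the spleen of M4075 with 1373714 counts (2.05%).

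Some leads were narrow. In the spleen of M4075, Monax4B009745 was second with 1278498 counts, so the leader had 1.07 times its count. In the kidney of M4075, Monax4B042242 led with 1134891 counts, 1.09 times the 1037980 counts of Monax4B021576. In pancreas the leader had 1.18 times the count of the next gene, in thymus 1.30 times, in heart 1.69 times and in lung 1.84 times. The lead of Monax4B019954 in liver was widest in the females F6852 and F9150, with 5.26 and 5.04 times the count of the second gene, and narrowest in the male M4046 with 1.28 times.

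Together the 7 genes held between 0.895% and 15.9% of a library. Their joint share averaged 9.67% ± 5.12 over the 6 livers, 1.05% ± 0.131 over the 5 kidneys and 3.24% ± 0.794 over the 5 spleens (SD). It was 15.5% in pancreas, 4.05% in heart, 3.58% in lung and 2.98% in thymus. The share thus varied by tissue and, in liver, also by animal, from 4.83% in M4046 to 15.9% in F6852.

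**Figure D1:**
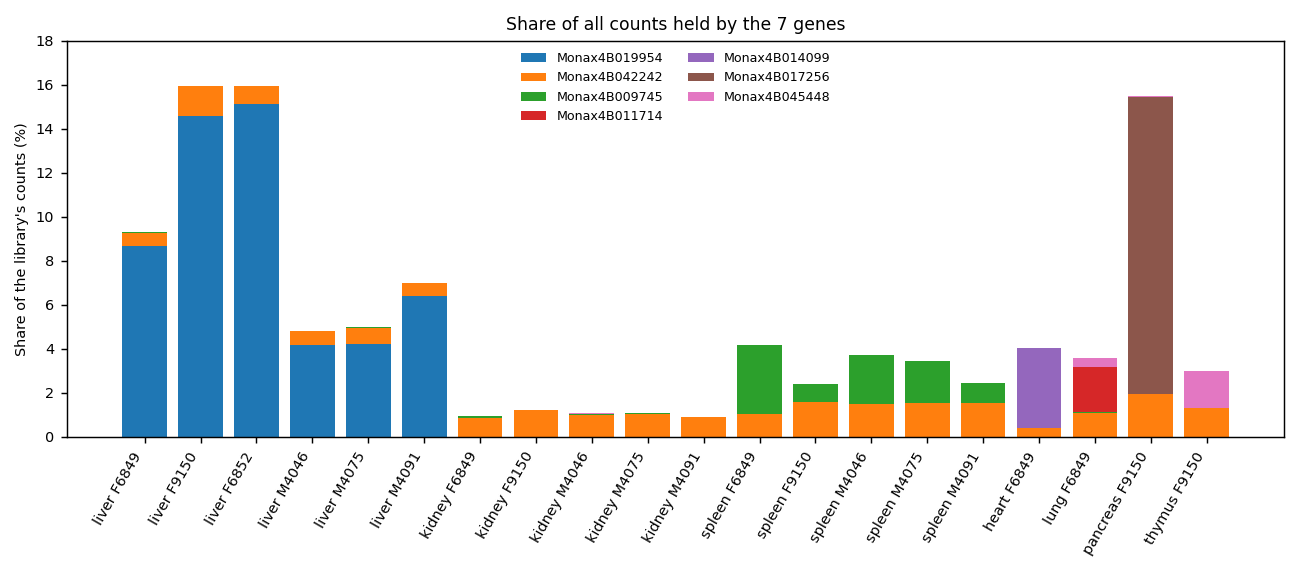
Share of each library's counts (%, vertical axis) held by the 7 genes, stacked by gene, for the 20 libraries named by tissue and animal. Monax4B019954 fills the liver bars, Monax4B017256 the pancreas bar, and Monax4B042242 is visible in every bar.

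A share depends on what the other genes of the library do. Levels are therefore also given as counts per 1000000 counts (CPM) of the effective library size after scaling with TMM factors (trimmed mean of M-values), called TMM CPM. These factors were 0.520 to 0.564 in liver and 0.464 in pancreas, against 1.45 to 1.54 in kidney and 1.39 to 1.55 in spleen, so a given share corresponds to a higher TMM CPM in liver and pancreas. On the log2 scale the mean factor was 1.46 higher in kidney than in liver, 1.47 higher in spleen than in liver and 0.01 higher in spleen than in kidney. Taking the 7 genes out before scaling, with the sizes set to the same geometric mean, moved the effective size of no library by more than 0.03%. A trimmed mean over many genes can change little when 7 are left out, so nothing is concluded from this.

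**Figure D2:**
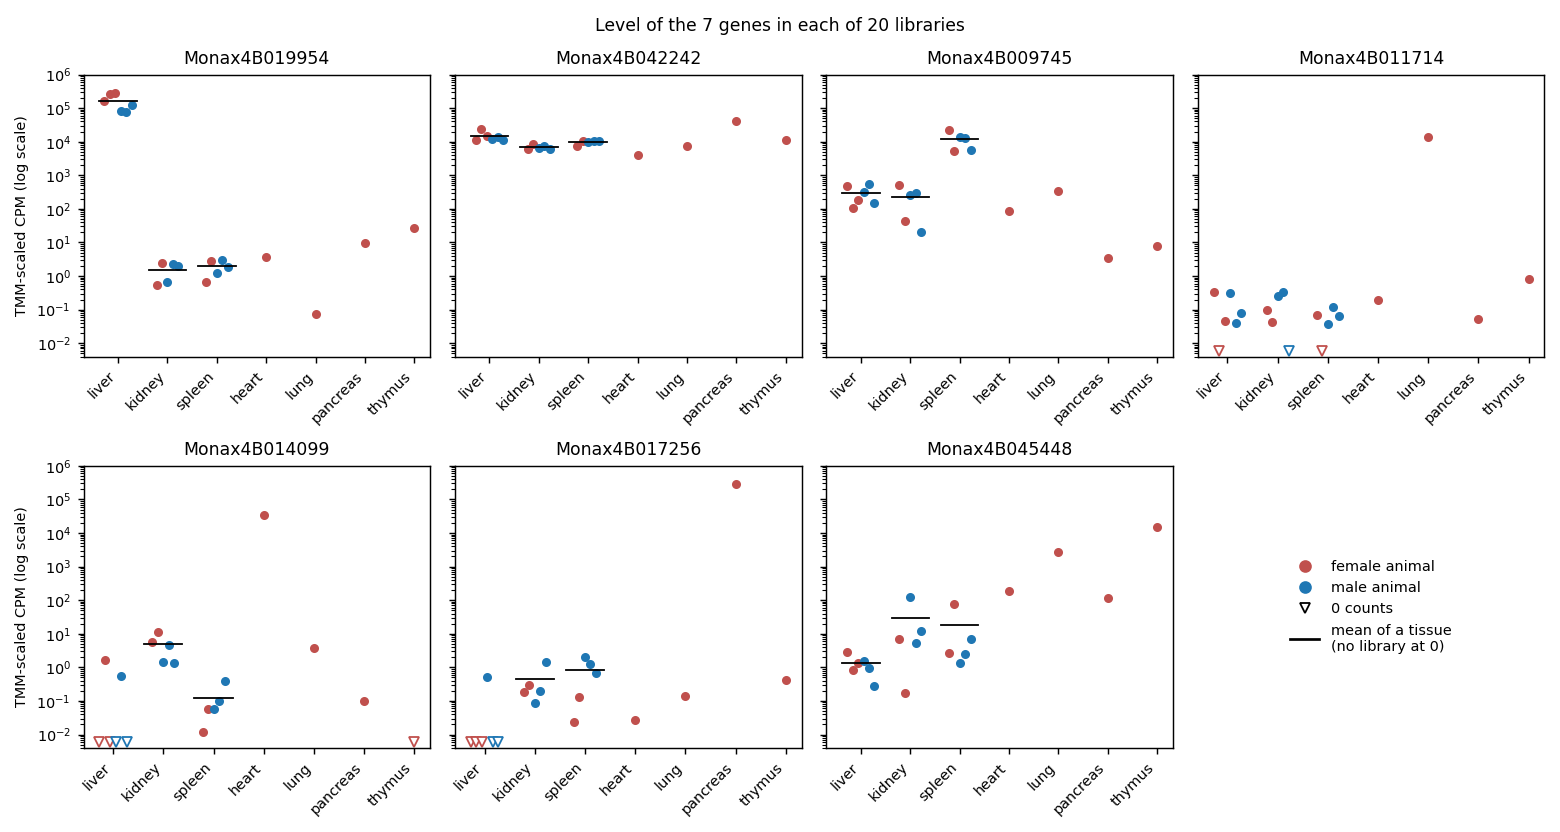
TMM CPM (log scale) of each of the 7 genes in the 20 libraries, by tissue and by the sex of the animal, with bars for tissue means and open triangles for 0 counts. Monax4B042242 lies between 3965 and 42022 in every library, while Monax4B011714, Monax4B014099 and Monax4B017256 stand high in a single library each.

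Monax4B019954 was the liver gene. It held 8.68% of the counts in the liver of F6849, 14.6% in F9150 and 15.1% in F6852, against 4.18% in M4046, 4.21% in M4075 and 6.42% in M4091. In TMM CPM the livers ran from 77173 to 281448 with a median of 143791. Every other library was far below these levels. The highest was thymus with 2067 counts (26.8 TMM CPM), and the lowest was lung with 12 counts (0.08 TMM CPM). The lowest liver was 2875 times the highest other library in TMM CPM and 1362 times by share.

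Among the other tissues the gene was low but detected in all 14 libraries. The kidneys had 79, 331, 68, 350 and 181 counts in F6849, F9150, M4046, M4075 and M4091, and the spleens 114, 302, 134, 300 and 168 in the same order. Kidney and spleen overlapped. Their difference, which the choice of the gene did not use, was -0.35 ± 0.57 (log2 fold change of kidney minus spleen ± SE) and did not pass a false discovery rate of 0.05 in edgeR's quasi-likelihood test (adjusted p = 0.613). In the 7 libraries that shared a sequencing lane with a liver, the level was 0.647 to 3.69 TMM CPM (median 2.23). In the 7 that did not, it was 0.08 to 26.8 (median 1.96), with the single thymus library highest. These sets differ in tissue, and the part of the lane in these levels was not tested.

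The livers of the 3 females held a larger share of Monax4B019954 than those of the 3 males. The 3 females had 12.8% ± 3.58 of their counts and the 3 males 4.94% ± 1.28 (SD, n = 3 each), a ratio of 2.59, and 235340 ± 61337 against 93142 ± 24918 TMM CPM, a ratio of 2.53. The groups did not overlap, with the lowest female at 165727 and the highest male at 121855 TMM CPM. The highest livers, those of F9150 and F6852, were the only livers that shared a lane, and the female F6849, in another lane, had 8.68% against 6.42% in the highest male. The part of the lane was not tested. A two-sided exact permutation test gave p = 0.1, the smallest that 3 against 3 animals allow. Across all genes, edgeR's quasi-likelihood test gave a log2 fold change of -1.38 ± 0.31 (SE, male minus female) with an adjusted p of 0.0863, which misses the threshold. DESeq2 called the difference (adjusted p = 0.000209), as did edgeR with observation weights (adjusted p = 0.000261), and over 13 alternatives the adjusted p ranged from 0.000209 to 0.239.

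None of the 4 chosen genes with enough counts to be tested in liver was called for sex there by the quasi-likelihood test, in which 223 of 17547 genes (1.27%) were called. Over all genes DESeq2 called 1534 and observation weights 1491, and leaving out 1 liver gave 9 (without F6852) to 133. The remaining 3 were left out by the filter on low counts. Monax4B042242 had 16600 ± 6293 TMM CPM in females and 12300 ± 1321 in males (SD, n = 3 each; adjusted p = 0.453 in edgeR). Monax4B009745 had 253 ± 197 in females and 333 ± 200 in males (SD, n = 3 each; adjusted p = 0.803 in edgeR), and Monax4B045448 had 1.72 ± 1.10 and 0.945 ± 0.646 (SD, n = 3 each; adjusted p = 0.534 in edgeR). In kidney 0 of 6 chosen genes were called by the quasi-likelihood test, beside 0 of 20520 genes overall (0%), with 1644 at an unadjusted p under 0.05, 532 called by DESeq2 and 370 with observation weights. The weights called 1 chosen gene there, Monax4B014099, and DESeq2 called 0. In spleen the quasi-likelihood test called 0 of 4, beside 0 of 19735 overall (0%), with 4154 at an unadjusted p under 0.05, 2470 by DESeq2 and 2170 with observation weights. There DESeq2 called 1 chosen gene, Monax4B017256, and the weights called 2, Monax4B017256 and Monax4B045448 (adjusted p = 6.50e-05 and 0.00109, edgeR). For Monax4B045448 the sexes overlapped in spleen, with the 2 females at 2.76 and 75.2 TMM CPM and the 3 males at 1.35 to 7.20. Its log2 fold change of male minus female was -3.46 in the main fit and ran from -4.40 to 0.392 over 12 alternatives.

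Whether the sex difference of Monax4B019954 depends on the tissue was tested with an interaction term. In the fits within each tissue, the log2 fold change of male minus female was -1.38 in liver, 0.12 in kidney and 0.17 in spleen. The interaction, taken as liver minus the other tissue, was -1.47 ± 1.05 for kidney and -1.54 ± 1.05 for spleen on the log2 scale (SE). The adjusted p were 0.692 and 0.491 in edgeR. No chosen gene passed this test, 0 of 6 for liver and kidney beside 33 of 22179 genes (0.149%), and 0 of 5 for liver and spleen beside 497 of 22179 genes (2.24%). A dependence on the tissue was therefore not shown.

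Monax4B042242 was the broad gene of the set. It was ranked between 1 and 22 in each of the 20 libraries, and no other gene held rank 22 or better in all of them. The limit of 22 was its own lowest rank, and the 6 libraries that it led were used to choose it. Ranks also rest on counts not divided by gene length, so this is a description. Besides leading these 6 libraries, Monax4B042242 was second in lung, thymus and the spleen of M4046. In kidney it held 0.878%, 1.22%, 1.01%, 1.06% and 0.890% of the counts in F6849, F9150, M4046, M4075 and M4091, and in spleen 1.06%, 1.59%, 1.51%, 1.56% and 1.55%. The spleen of each animal was above its kidney. In liver the shares ran from 0.583% to 1.33% with a median of 0.690%, and the single libraries had 1.95% in pancreas, 1.29% in thymus, 1.09% in lung and 0.408% in heart.

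The order of the tissues for Monax4B042242 depended on the scale. By share of the library, pancreas came first with 19511 CPM of the library total, then spleen with 14528 ± 2203 (SD, n = 5), thymus with 12921, lung with 10908, kidney with 10119 ± 1395 (SD, n = 5), liver with 7810 ± 2824 (SD, n = 6) and heart with 4079. Thymus lay within the range of the spleens, lung within those of both kidneys and spleens, and the liver range of 5825 to 13279 overlapped kidney and spleen. After TMM scaling the pancreas remained first with 42022, and liver moved to second with 14450 ± 4699 TMM CPM. Thymus followed with 11289, spleen with 9725 ± 1210, lung with 7248, kidney with 6851 ± 922 and heart with 3965.

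On the TMM scale every liver (11056 to 23542) was above every spleen (7646 to 10774) and every kidney (6047 to 8272). Thymus lay at the low end of the livers and lung within the kidneys. The log2 ratio of the mean level in liver over kidney was 1.08 with TMM and 1.11 with the median-ratio (RLE) factors, but -0.37 with library sizes alone, and that of liver over spleen was 0.57 and 0.63 but -0.90. Kidney over spleen was -0.51, -0.49 and -0.52, so this order was the same on each of these scales. The highest of the 20 libraries was 10.6 times the lowest in TMM CPM and 4.78 times by share, the narrowest range on both scales of the 4 chosen genes that were detected in all 20 libraries. These ratios carry no test, since the gene was chosen on the kidney and spleen counts.

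**Figure D3:**
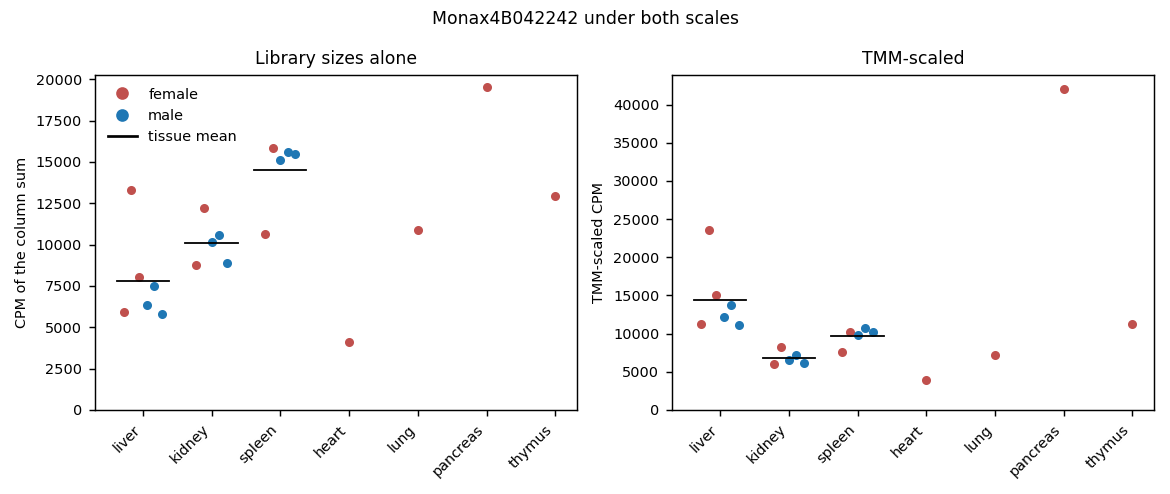
Level of Monax4B042242 in the 20 libraries by tissue, as CPM of the library total (left) and as TMM CPM (right), with bars for tissue means. The livers lie at 5825 to 13279 on the left, mostly below the spleens, and at 11056 to 23542 on the right, above all spleens and kidneys.

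Monax4B009745 led spleens and varied between animals. It held 3.12% of the counts in the spleen of F6849, 0.801% in F9150, 2.19% in M4046, 1.91% in M4075 and 0.882% in M4091. In TMM CPM these were 22496, 5152, 14232, 13186 and 5799, so the highest spleen was 4.37 times the lowest. The spleens of F9150 and M4091, where the gene had rank 3, were those led by Monax4B042242. Even the lowest spleen was 9.46 times the highest library of any other tissue, the liver of M4075.

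Outside the spleen the same animals were low again. The kidneys had 501, 44.6, 264, 298 and 20.7 TMM CPM in F6849, F9150, M4046, M4075 and M4091, and the livers 476, 105, 310, 544 and 146, with 178 in F6852. F9150 and M4091 were the lowest 2 of the 5 animals in each of the 3 tissues. The highest of these 5 animals was 24.2 times the lowest in kidney and 5.18 times in liver. Among the single libraries, lung and heart of F6849 had 352 and 88.9 TMM CPM, and thymus and pancreas of F9150 had 7.82 and 3.39, so the comparison of these tissues is also one of a high with a low animal.

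The difference between animals was tested in liver and kidney, which the choice of the gene did not use, with the 5 animals that have both (the liver of F6852 was left out). This test was added after the values were seen. The unadjusted p of edgeR's quasi-likelihood test was 0.00964 and the adjusted p 0.350. In the same test 3 of 19481 genes (0.0154%) were called and 2171 had an unadjusted p under 0.05, and 0 of the 5 chosen genes tested passed. Liver and kidney did not pass in the fit that ignores the animal (log2 fold change of liver minus kidney 0.47 ± 0.69 SE, adjusted p = 0.572 in edgeR). With the animal as a block the adjusted p was 0.0543. In TMM CPM, liver was above kidney in each of the 5 animals but F6849 (476 against 501). With library sizes alone the log2 fold change turned to -1.09 (adjusted p = 0.141).

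**Figure D4:**
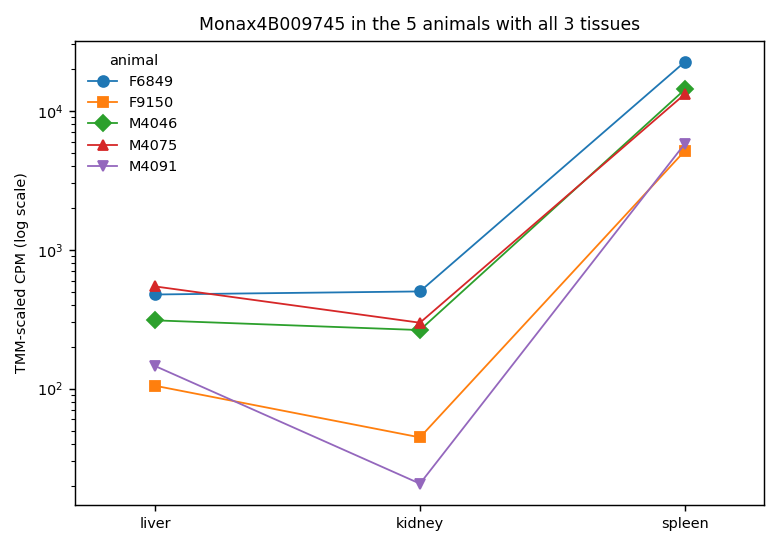
TMM CPM (log scale) of Monax4B009745 in liver, kidney and spleen of the 5 animals that have all 3 tissues, with 1 line per animal. The lines of F9150 and M4091 lie below the other lines in each tissue, at 20.7 and 44.6 in kidney against 264 to 501 in the remaining animals.

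Monax4B017256 was the pancreas gene. In that library it had 11333715 counts, 13.5% of the library and 291024 TMM CPM. In the other 19 libraries it had at most 221 counts, and the pancreas level was 140789 times the highest of them in TMM CPM. The kidneys of F6849, F9150, M4046, M4075 and M4091 had 27, 40, 9, 32 and 138 counts, and the spleens 4, 14, 221, 126 and 63. In liver the gene had 36 counts in M4046 and 0 in the other 5 animals, where a count of 0 allows a share of at most 2.14e-06% to 3.62e-06%.

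The pancreas library was sequenced in 1 lane together with the kidney of M4091 and the spleen of M4046. These were the highest kidney and the highest spleen, at 1.49 and 2.07 TMM CPM, against at most 0.293 and 1.30 in the other animals. Relative to pancreas, this kidney and this spleen had 12.2 and 19.5 counts per 1000000 counts of the gene. The spleen of M4075, in another lane, had 126 counts.

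Of the 7 genes, 4 led no library of liver or spleen, and 2 of these 4 were called between liver and spleen, both lower in liver. Over all genes 74.0% (15357 of 20764) were called in this comparison, so the count is no result about the chosen genes. Monax4B017256 was one of the 2, with a log2 fold change of -3.09 ± 1.32 (SE, liver minus spleen, adjusted p = 0.0446 in edgeR). Its liver and spleen ranges overlapped through the liver of M4046. The call held in 13 of 27 alternatives, and the adjusted p ranged from 1.89e-09 to 0.122.

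Without the spleen of M4046 the log2 fold change of Monax4B017256 for liver and spleen was -2.44 with an adjusted p of 0.122, and without both lane mates of the pancreas -2.44 with 0.107 (edgeR). With the lane as a block the adjusted p was 0.0382. The log2 fold change was negative in all 27 alternatives, from -9.37 to -2.44. The call was also lost without the liver of F6849, F9150, F6852, M4075 or M4091, the kidney of F6849, F9150 or M4075, or the spleen of M4075 or M4091, with adjusted p of 0.0509 to 0.0766 in edgeR. Liver and kidney did not pass (adjusted p = 0.163), except without the liver of M4046 (0.00626), with observation weights (2.12e-06) and by library sizes alone (0.0169). Males were above females in spleen without overlap, at 0.696 to 2.07 against 0.0234 to 0.134 TMM CPM, with a log2 fold change of 4.12 ± 0.93 (SE) and an adjusted p of 0.102 in edgeR. DESeq2 gave 8.29e-05, and over the 12 alternatives the adjusted p ranged from 6.50e-05 to 0.277.

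Monax4B014099 led the heart with 2535795 counts, 3.61% of the library and 35091 TMM CPM. The next library was the kidney of F9150 with 1516 counts, 3158 times lower in TMM CPM. The kidneys of F6849, F9150, M4046, M4075 and M4091 had 5.89, 11.1, 1.46, 4.64 and 1.39 TMM CPM, and lung had 3.83. In liver the gene had 86 counts in F9150, 28 in M4075 and 0 in the other 4 animals, and the spleens had 2, 6, 6, 10 and 36 counts. Kidney thus came next after heart, with the lung library inside its range, and 0 counts were found in 5 libraries, thymus included.

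Monax4B014099 was called between kidney and spleen, with a log2 fold change of 5.30 ± 1.46 (SE, kidney minus spleen, adjusted p = 0.00509 in edgeR). The lowest kidney (1.39 TMM CPM) was above the highest spleen (0.398), and the call held in all 27 alternatives, with adjusted p of 8.43e-07 to 0.0148. It was the only one called of the 5 chosen genes that led no kidney and no spleen, and 62.5% of all genes (12969 of 20764) were called in the same comparison. The highest spleen, that of M4091, shared a lane with the heart library. The other lane mate of the heart, the liver of M4075, had 28 counts, fewer than the 86 in the liver of F9150 from another lane.

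Between liver and kidney, 2 of the 5 genes that led neither tissue were called, both lower in liver, beside 63.0% of all genes (13077 of 20764). Monax4B014099 had a log2 fold change of -3.64 ± 1.26 (SE, liver minus kidney, adjusted p = 0.0190 in edgeR), a size that depends on how 0 counts are treated because 4 of 6 livers had none. Without the kidney of F9150 the adjusted p was 0.0515, and the other 26 alternatives kept the call. Liver and spleen did not pass (adjusted p = 0.258). The females were above the males in kidney, at 8.50 ± 3.70 (SD, n = 2) against 2.50 ± 1.86 TMM CPM (SD, n = 3), with an adjusted p of 0.596 in edgeR and 0.0145 with observation weights.

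The split of all calls between liver and kidney depended on the scaling. With TMM factors 51.0% of the genes called were higher in liver, and with library sizes alone 9.10%. For liver and spleen the values were 46.6% and 15.3%. The directions of the calls named here were the same under both.

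**Figure D5:**
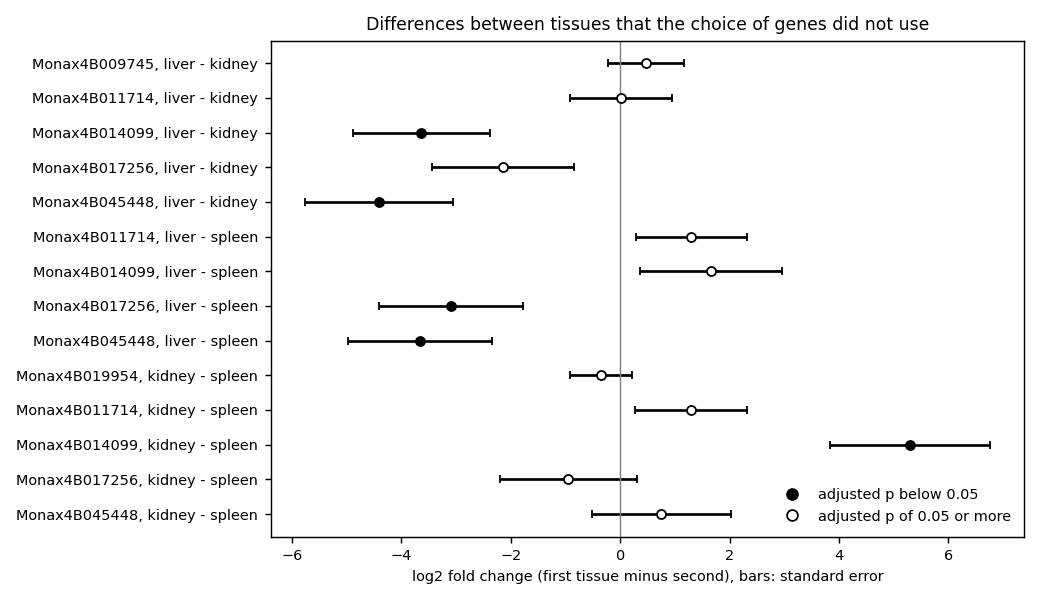
Log2 fold changes between tissues (horizontal axis; first tissue minus second, bars are standard errors) for the genes and pairs of tissues that the choice of the genes did not use. Filled circles passed an adjusted p of 0.05 in edgeR, which were Monax4B014099 and Monax4B045448 for liver and kidney, Monax4B017256 and Monax4B045448 for liver and spleen, and Monax4B014099 for kidney and spleen.

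Monax4B045448 led the thymus and was the one single-library leader that was also high elsewhere. It had 1133754 counts in thymus (1.69%, 14721 TMM CPM) and 441532 in lung (0.423%, 2811 TMM CPM), where it was ranked 6. The lung level was 5.24 times lower than that of thymus in TMM CPM, and both libraries came from the same lane. Heart followed with 184 TMM CPM and pancreas with 119. Relative to thymus, lung had 389443 counts per 1000000 counts of Monax4B045448, whereas for Monax4B011714, the leader of lung, thymus had 29.5 counts per 1000000 counts in lung.

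In the replicated tissues Monax4B045448 was low in most animals and high in a few libraries. The kidneys of F6849, F9150, M4046, M4075 and M4091 had 7.08, 0.176, 126, 5.43 and 12.1 TMM CPM, and the spleens 2.76, 75.2, 1.35, 2.48 and 7.20. The livers ran from 0.282 to 2.97 with a median of 1.16. The high kidney was that of M4046 and the high spleen that of F9150, so no animal was high in both, and liver overlapped kidney and spleen.

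Monax4B045448 was called lower in liver than in kidney (log2 fold change -4.41 ± 1.36 SE, adjusted p = 0.0100 in edgeR) and than in spleen (-3.66 ± 1.32 SE, adjusted p = 0.0204). Each call held in 24 of 27 alternatives. Observation weights kept both, with log2 fold changes of -2.61 and -1.79 (adjusted p = 0.000664 and 0.0172 in edgeR). However, each call was lost without 1 library. Without the kidney of M4046 the first had a log2 fold change of -2.10 and an adjusted p of 0.114, and without the spleen of F9150 the second had -1.27 and 0.305. With the animal as a block the adjusted p were 0.0802 and 0.165, and with the lane as a block 0.142 and 0.234. Kidney and spleen did not pass (adjusted p = 0.62), but without the spleen of F9150 kidney was called higher (log2 fold change 3.14, adjusted p = 0.0424 in edgeR).

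Monax4B011714 had the fewest counts outside the tissue that it led. Lung had 2100482 counts, 2.01% of the library and 13371 TMM CPM. No other library had more than 62 counts, the number in thymus (0.805 TMM CPM), which shared the lane of the lung, and the lung level was 16609 times that of thymus. The livers had 0 to 24 counts, the kidneys 0 to 54 and the spleens 0 to 12. Counts of 0 were found in the liver of F9150, the kidney of M4091 and the spleen of F9150, which allow shares of at most 3.30e-06%, 4.71e-06% and 4.46e-06%. No pair of liver, kidney and spleen passed edgeR's test (adjusted p = 0.993 for liver and kidney, 0.258 for liver and spleen and 0.284 for kidney and spleen).

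For each gene, the most similar profile over the 20 libraries was sought by Pearson's r of log2 TMM CPM. The search covered the 23602 genes with enough counts in at least 1 library. Monax4B019954 was closest to Monax4B036906 (r = 0.992) and Monax4B017256 to Monax4B046351 (r = 0.982), a gene that held 7.64% of the pancreas library. Monax4B009745 was closest to Monax4B009893 (r = 0.972), Monax4B011714 to Monax4B031184 (r = 0.952), and Monax4B042242 to Monax4B008080 (r = 0.947). Monax4B045448 was closest to Monax4B044832 (r = 0.947) and Monax4B014099 to Monax4B029461 (r = 0.923). At its highest, in heart, Monax4B029461 held only 7.12e-05% of the library. Spearman's rho with the nearest gene was 0.525 for Monax4B011714 and 0.781 for Monax4B014099, and 0.839 to 0.955 for the other pairs. These values describe 20 libraries that share animals and tissues, and a single library can set r for the genes of heart, lung, pancreas and thymus. In each of the 7 pairs the nearest gene was highest in the library where the chosen gene was highest. Since the nearest gene was picked by r over these same libraries, this is no separate support.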

How the data were processed

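PolyA-selected libraries from a kit that does not mark strand were read as pairs. Mapping by the authors used the rna-mapper of gem-tools, and Monax4B genes were quantified with gemtools. The deposited values are raw counts. Of the counts above 0, 85.1% to 86.5% are even, so both reads of a pair seem to have been counted, and intervals with pairs as the unit are wider (0.0109 percentage points at most). The submitters' processing notes name CASAVA 1.8.4 and FastQC 0.11.5.

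Shares carry Wilson intervals and a floor of 3 counts, and CPM used TMM factors over 20 libraries (prior count 2 on the log2 scale). Differences were tested over all genes with filterByExpr and the robust quasi-likelihood test of edgeR 4.0.16 (R 4.3.3, limma 3.58.1), with Benjamini-Hochberg adjustment and a threshold of 0.05. Liver, kidney and spleen entered 1 fit with tissue as the only term, and the sexes were compared within each tissue. The interaction fit held tissue, sex and their interaction. Both fits treated libraries of the same animal as independent, and the animal as a block was an alternative. A gene was tested only between tissues of which it led no library, or between the sexes where it led none or all libraries of the tissue. The fits were tested on simulated data. Libraries of the same animal, as the labels name it, are pairs, and the 15 pairs correlated at r = 0.122 to 0.312 over 20729 genes after removal of tissue means. The 8 lanes were read from the column names.

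The alternatives were DESeq2 1.42.0, edgeR with observation weights, RLE factors, library sizes alone, no filter, read pairs, sizes without the 7 genes, only the compared tissues, the animal or the lane as a block, and each library left out. The test between animals and the fit without the lane mates of the pancreas were added after the data were seen. The 7 genes and the tests were chosen with earlier results of these data known. The genes named are the 7, further leaders of a library, and the nearest gene of each. Plots were made in matplotlib 3.10.9 under Python 3.11.15.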

Additional observations from a re-analysis of the deposited data

Results flagged for a closer look

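In 7 of the 21 sets of a gene and a replicated tissue, 1 library stood apart from the rest by Dixon's test at the 95% level. The limits of this test assume normally distributed values. Here they were applied to levels without a log scale, some of them 0, so no rate by chance is given. Monax4B042242 had 23542 TMM CPM in the liver of F9150, against 11056 to 14989 in the other livers. Monax4B045448 had 126 in the kidney of M4046, against 0.176 to 12.1 in the other kidneys, and 75.2 in the spleen of F9150, against 1.35 to 7.20 in the other spleens. Leaving out the kidney of M4046 ended the call of Monax4B045448 between liver and kidney. Leaving out the spleen of F9150 ended its call between liver and spleen. Observation weights kept both calls.

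The other 4 concern low levels. Monax4B014099 had 1.68 TMM CPM in the liver of F9150, against 0 to 0.571 in the other livers, and 0.398 in the spleen of M4091, a lane mate of the heart library, against 0.0117 to 0.103. Monax4B017256 had 0.515 in the liver of M4046, with 0 in the remaining livers, and 1.49 in the kidney of M4091, a lane mate of the pancreas library, against 0.0856 to 0.293. With 0 in all other livers, any single liver above 0 would have been flagged. The liver of M4075, the other lane mate of the heart, had 0.571, below the liver of F9150. No difference between the sexes was shown to depend on the tissue for the genes of the 7 that were tested.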

How the results depend on the processing

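With library sizes alone, the log2 ratios of mean level of Monax4B042242 reversed to -0.37 for liver over kidney and -0.90 for liver over spleen. Of the chosen genes, 1 in place of 2 was called between liver and spleen with no filter, with only the 2 tissues, with the animal as a block, with the lane as a block and without the lane mates of the pancreas, and between liver and kidney with the animal or the lane as a block. The animal as a block absorbs the liver of F6852, the only library of that animal. Among the tested genes, neither block ended any call but those of Monax4B045448. Leaving out 1 library gave 1 to 3 called genes for liver and kidney, 1 to 2 for liver and spleen and 1 to 2 for kidney and spleen. The main fit tested 5, 4 and 5 chosen genes in these comparisons, and called 63.0%, 74.0% and 62.5% of all genes. These counts are therefore no result about the chosen genes. By sex, the genes called over the whole table in liver were 1534 with DESeq2, 1491 with observation weights and 9 (without F6852) to 133 with 1 library left out, against 223, with 1 chosen gene called under both of the first 2. In kidney they were 532, 370 and, with no filter or read pairs, 1 each, against 0, with 1 chosen gene called under the weights. In spleen they were 2470, 2170, 2 with library sizes alone, 118 with no filter and 0 to 660 (without F9150) with 1 library left out, against 0, with 1 chosen gene called by DESeq2 and 2 under the weights. With the animal as a block, the genes whose sex difference depends on liver or kidney fell from 33 to 0. With no filter, 5 in place of 3 genes differed between animals. The causes were not tested. Depth limits only the genes at a few counts per library, where 1 read pair moves the value.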
